A study of Mus musculus with 8 samples.

Results

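Histone transcripts were followed in mouse B-lymphoid cells that carried or lacked the transcription factor c-JUN. A gene was taken as a member when its name in the platform annotation began with 1 of 15 histone prefixes and a probe set carried that name and no other, and the probe set with the highest mean was used. This gave 34 histone genes, measured by 35 single-symbol probe sets, among the 19937 genes tested. By their names 24 were replication-dependent genes, 5 were variants (H1f10, H2ax, H2az1, H2az2 and H3f3a) and 5 were genes named for the germ line (H1f6, H1f7, H1f8, H2ac1 and H2bc1). Of the 34, 23 lay on chromosome 13 and 5 on chromosome 3.

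The series compared 4 c-jun knockout samples with 4 wild-type samples, all labelled as B-lymphoid cells with the strain entry SW129/C57BL/6J, on 1 Affymetrix MoGene 1.0 ST array per sample. Its title concerns leukemia induced by BCR-ABL, a fusion tyrosine kinase, but the sample labels state neither whether the cells carried it, nor how or where the gene was deleted. They do not say which samples had a culture or animal of their own, so a p-value here speaks only of array-to-array spread, and that spread may be technical. The titles follow 2 schemes: knockout replicates 3 and 4 have D titles and wild-type replicates 3 and 4 have F titles, together called D/F here, and replicates 1 and 2 of each genotype have RO titles. The labels do not call the schemes batches. All values are log2 signals as deposited unless said otherwise. They have no unit of abundance, and because probes differ in affinity the signal of a gene is compared between arrays and not with that of another gene.

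Core histones H2A, H2B, H3 and H4 form the protein spool of the nucleosome, and linker histone H1 binds the DNA between nucleosomes. Replication-dependent histone genes lie in clusters, have no introns and are transcribed mainly in S phase, and most of their messages end in a stem-loop that stem-loop binding protein recognises, in place of a poly(A) tail. Variant histones such as H2A.Z, H2A.X and H3.3 come from dispersed genes that are made through the cell cycle as polyadenylated messages, and H2A.X can also give a stem-loop message. Priming here was with random hexamers, which need no poly(A) tail. The replication-dependent genes of 1 core histone family are near-identical copies in sequence, so signal may be shared between copies even where a probe set carries 1 name. Each core histone level below is uncertain in that respect. Whether the H1 probe sets also read other genes was not tested.

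Promoter windows from RefSeq (GRCm38.p6; 250 bases before the annotated start to 50 after it, 300 in all) were found for 29 of the 34 genes; the other 5 were H2ax, H2bc4, H2bc21, H3c7 and H4c14. The windows of 5 genes are shown because the results below turn on these genes or because they show how the promoters of the classes differ in letters. Capitals mark matches, on either strand, to CCAAT (the CCAAT box), TATAA (the TATA box), ATTTGCAT (the octamer, an element of histone H2B and immunoglobulin promoters) or TGANTCA (the AP-1 site, bound by JUN and FOS proteins). TGACGTCA, the cyclic AMP response element, was searched too and has no match in these windows.
H2ac4, chr13:23750838-23751137, plus strand: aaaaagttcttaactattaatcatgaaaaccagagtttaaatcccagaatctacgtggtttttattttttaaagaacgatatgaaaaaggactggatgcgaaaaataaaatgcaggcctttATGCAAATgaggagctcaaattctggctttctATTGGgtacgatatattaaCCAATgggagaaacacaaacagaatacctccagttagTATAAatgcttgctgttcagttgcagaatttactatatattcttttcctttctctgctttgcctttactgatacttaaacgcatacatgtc
H2bc18, chr3:96269450-96269749, plus strand: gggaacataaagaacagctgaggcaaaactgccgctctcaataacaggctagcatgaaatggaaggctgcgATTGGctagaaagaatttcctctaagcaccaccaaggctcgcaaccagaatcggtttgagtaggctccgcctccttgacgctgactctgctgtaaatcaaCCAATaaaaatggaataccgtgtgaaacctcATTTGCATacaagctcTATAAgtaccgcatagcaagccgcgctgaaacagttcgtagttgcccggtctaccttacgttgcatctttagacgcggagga
H4c4, chr13:23581318-23581617, plus strand: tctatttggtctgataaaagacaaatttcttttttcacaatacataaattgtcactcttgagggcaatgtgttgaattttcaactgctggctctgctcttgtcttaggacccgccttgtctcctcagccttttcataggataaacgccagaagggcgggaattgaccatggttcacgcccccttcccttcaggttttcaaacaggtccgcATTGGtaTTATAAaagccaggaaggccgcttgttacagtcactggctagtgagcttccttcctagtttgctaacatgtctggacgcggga
H1f5, chr13:21780576-21780875, minus strand: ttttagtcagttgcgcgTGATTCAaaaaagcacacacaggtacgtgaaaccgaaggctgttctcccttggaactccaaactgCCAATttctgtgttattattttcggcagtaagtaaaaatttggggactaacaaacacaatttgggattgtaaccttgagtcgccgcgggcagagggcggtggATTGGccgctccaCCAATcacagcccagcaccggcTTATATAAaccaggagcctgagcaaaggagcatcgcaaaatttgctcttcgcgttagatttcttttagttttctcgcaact
H2az1, chr3:137864237-137864536, plus strand: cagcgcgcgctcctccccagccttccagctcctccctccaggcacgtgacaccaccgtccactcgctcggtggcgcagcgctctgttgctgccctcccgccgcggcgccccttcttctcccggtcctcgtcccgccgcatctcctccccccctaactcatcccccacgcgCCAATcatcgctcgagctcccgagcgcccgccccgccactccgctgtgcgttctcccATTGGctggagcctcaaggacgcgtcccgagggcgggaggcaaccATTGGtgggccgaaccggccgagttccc

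Over the 20 replication-dependent genes with a window, 17 windows (85%) held CCAAT, against 37.4% of all 32851 windows in the table, and 15 (75%) held TATAA, against 24.9%. The octamer stood in 6 (30%), against 1.74% of all windows, and these 6 were H2A or H2B genes: H2ac4, H2ac8, H2bc3, H2bc8, H2bc14 and H2bc18. The AP-1 letters were found in 1 of the 20 windows (5%), that of H1f5, against 7.81% of all windows, and the cyclic AMP response element in 1 (5%), that of H4c8, against 1.79%. Of the 4 variant windows, 3 held CCAAT and 0 held any of the other letters. The printed H2ac4 window was 33.3% G and C and that of H2az1 71.3%. Of the 20 windows, 4 overlapped the window of a histone gene on the other strand, H2ac15 with H2bc15, H2ac8 with H2bc8 (both members) and H2bc22 with H2ac22. These matches describe letters and not binding.

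The labels and arrays were checked first. Jun, the deleted gene, had 6.99, 6.46, 7.02 and 6.97 in knockout replicates 1 to 4, against 8.82, 8.84, 10.55 and 8.77 in wild-type replicates 1 to 4. The difference was -2.38 (SE 0.32), with an adjusted p of 0.106 over all genes in limma and a 2-sided exact permutation p of 0.0286, the smallest that 70 assignments allow. The deposited values are scaled to 1 trimmed mean per array, and array medians ran from 6.93 to 7.22 in knockout samples and from 6.99 to 7.42 in wild-type samples, highest in wild-type replicates 1 and 3. Of 10 B-cell markers 9 were measured, and 7 of the 9 were higher on average in knockout samples. The share was 28% of all genes and 62.4% of the 519 genes with a mean signal over 12. The mean of the 9 markers was 11.50 to 11.82 on knockout and 11.35 to 11.85 on wild-type arrays. Igll1, part of the surrogate light chain of early B cells, varied little, at 13.82 to 14.04 in knockout and 13.96 to 14.21 in wild-type samples. Rag1, of the antigen receptor recombinase, varied widely, at 8.00 to 10.43 in knockout and 6.17 to 9.80 in wild-type samples, as did Cd22, a B-cell receptor inhibitor, at 7.55 to 10.16 in knockout and 8.49 to 9.29 in wild-type samples. Mean signals of the T and NK, myeloid, erythroid, stromal and germ-cell marker lists lay between 6.00 and 7.27 on each knockout array and between 6.03 and 7.48 on each wild-type array, near the array medians. Lyz2 had 10.63 and 10.64 in knockout replicates 1 and 2, 9.24 in knockout replicate 3 and 9.93 in wild-type replicate 3. On the other arrays Lyz2 ran from 7.44 to 8.66. Klrb1c reached 10.54 in wild-type replicate 3, and the part of Lyz2 and Klrb1c in the results was not tested.

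The first question was whether histone transcripts differed between genotypes. None of the 34 genes passed the adjustment over all genes (limma, lowest adjusted p = 0.878), in a comparison where 1 gene of 19937 (0.00502%) passed. At an unadjusted p under 0.05 there were 3 members, H2ac4 and H2bc18 above and H3c7 below the wild type, against 2.25% of all genes. After quantile normalization 1 member, H2ac4, was under 0.05, against 677 of 19937 genes. All 4 knockout arrays lay above all 4 wild-type arrays for 1 member, H2ac4 (0.266% of all genes), and below them for 1, H3c7 (1.03% of all genes). On average 17 of the 24 replication-dependent genes, 3 of the 5 variants and 2 of the 5 germ-line genes were higher in knockout samples, against 28% of all genes. After quantile normalization these counts were 18, 3 and 1, against 43.5% of all genes. With arrays centred on their medians 23 of the 24 replication-dependent genes were higher. The median of all genes was then 0.04, so more genes were higher than lower, but their share was not counted. Of the 519 genes with a mean over 12, 62.4% were higher as deposited and 50.5% after quantile normalization. Of the 11 replication-dependent genes with such a mean, 8 were higher in both. In bulk samples fewer cells of a type, such as cells in S phase, and less RNA per cell cannot be told apart.

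The median difference of the replication-dependent genes was 0.08, that of the variants 0.04 and that of the germ-line genes -0.01, beside -0.11 over all genes. After quantile normalization the medians were 0.08, 0.02 and -0.02, beside -0.02 over all genes. The 519 genes with a mean over 12 had a median of 0.04 as deposited and 0.00325 after quantile normalization. The median of the replication-dependent genes was -0.02 within the RO arrays, with 9 of 24 higher in knockout (26.5% of all genes), and 0.23 within the D/F arrays, with 17 of 24 higher (52.4% of all genes). The medians of all genes were -0.25 and 0.01 in the same 2 fits.

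**Figure D1:**
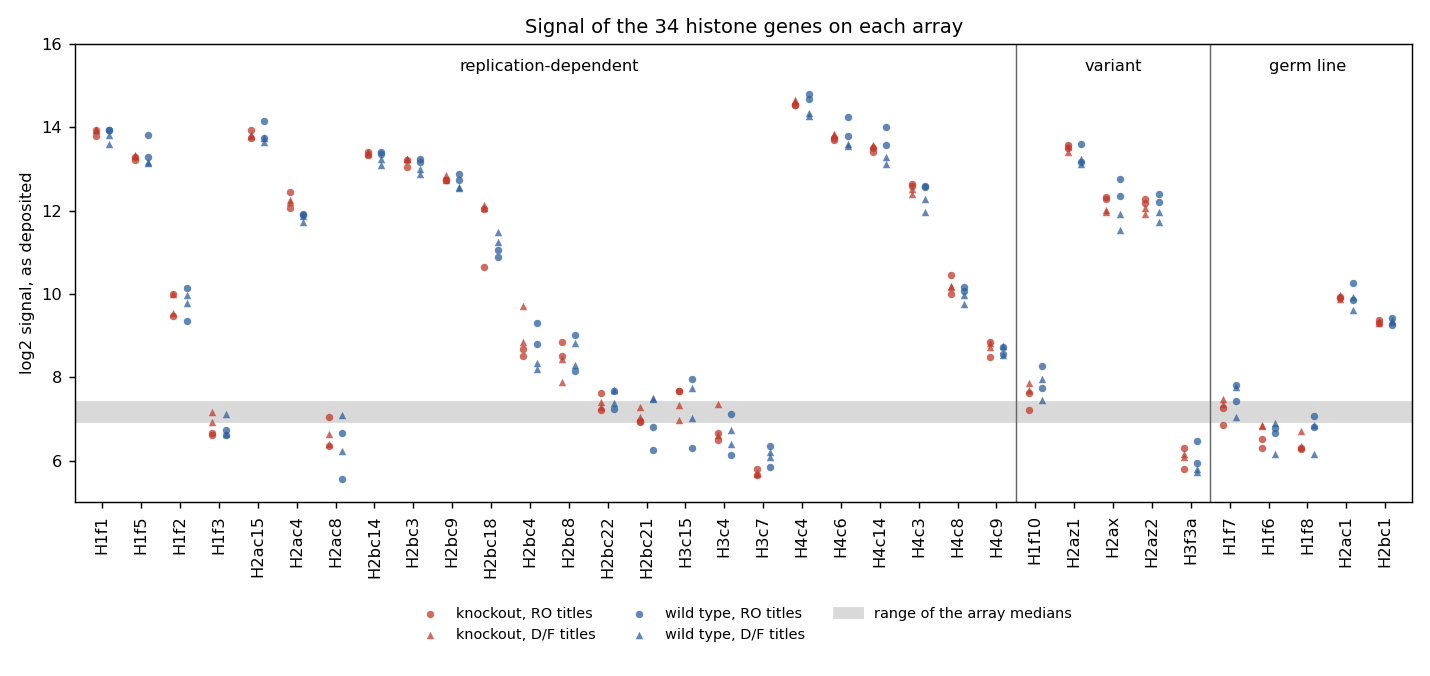
Log2 signal as deposited (vertical axis) of each of the 34 histone genes (horizontal axis, by class and family) on each array, with knockout in red left of wild type in blue, circles for RO and triangles for D/F titles, and a grey band for the range of the array medians. Knockout and wild-type points overlap for every gene except H2ac4 and H3c7, and wild-type points spread more than knockout points for 28 of the 34 genes.

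Among the linker histone genes, H1f1 and H1f5 encode the somatic subtypes H1.1 and H1.5. H1f1 had 13.80, 13.93, 13.93 and 13.94 in knockout replicates 1 to 4, against 13.92, 13.93, 13.81 and 13.59 in wild-type replicates 1 to 4, a difference of 0.09 (SE 0.11). H1f5, whose window is the one with the AP-1 letters, had 13.21, 13.28, 13.33 and 13.31 in knockout samples, against 13.81, 13.30, 13.17 and 13.13 in wild-type samples, a difference of -0.07 (SE 0.14). Only wild-type replicate 1 stood apart for H1f5 as deposited, and without it the difference was 0.08. After quantile normalization the H1f5 difference was -0.11 (SE 0.08), and all knockout arrays lay below all wild-type arrays, as for 310 of 19937 genes. The gap was narrow, from 13.280 in knockout replicate 2 to 13.283 in wild-type replicate 4. H1f3, the gene of H1.3, had 6.67, 6.62, 6.92 and 7.17 in knockout samples and 6.61, 6.73, 6.64 and 7.11 in wild-type samples, near the array medians, with overlapping groups and a difference of 0.07 (SE 0.18). H1f2, the fourth gene of the family, had a difference of -0.06 (SE 0.21).

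H2A proteins pair with H2B in the nucleosome. H2ac4 had the lowest p of the 34 members. Its signal was 12.06, 12.46, 12.25 and 12.22 in knockout replicates 1 to 4, against 11.91, 11.90, 11.74 and 11.87 in wild-type replicates 1 to 4, so that the groups did not overlap. The means were 12.25 ± 0.16 in knockout and 11.85 ± 0.08 in wild-type samples (SD, n = 4 each), a 1.31-fold higher level (log2 difference 0.39, SE 0.13; limma adjusted p = 0.878). The difference was 0.35 within the RO arrays, 0.43 within the D/F arrays and 0.36 after quantile normalization, where the groups again did not overlap, and it ran from 0.32 to 0.48 with 1 array left out. H2ac15 showed no such separation, with 13.76, 13.93, 13.78 and 13.82 in knockout samples and 14.16, 13.74, 13.65 and 13.75 in wild-type samples (difference -0.00481, SE 0.12). The dim H2ac8 had 6.34, 7.04, 6.64 and 6.39 in knockout samples and 5.56, 6.65, 6.24 and 7.10 in wild-type samples, overlapping groups with a difference of 0.21 (SE 0.30) that was -0.08 without wild-type replicate 1.

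Of the 8 H2B genes, 6 were higher on average in knockout samples as deposited and 7 after quantile normalization. The shares of all genes were 28% and 43.5%. Among the 519 genes with a mean over 12 they were 62.4% and 50.5%. H2bc18 had the largest difference of all 34 members, 0.55 (SE 0.25; limma adjusted p = 0.878). Its signals were 10.64, 12.04, 12.07 and 12.14 in knockout replicates 1 to 4, against 11.05, 10.90, 11.49 and 11.24 in wild-type replicates 1 to 4. Knockout replicate 1 lay below all 4 wild-type arrays and the other 3 knockout arrays lay above them. The difference was 0.36 within the RO arrays and 0.74 within the D/F arrays, where H2bc18 was the 1 member that passed (limma adjusted p = 0.0268), in a fit of 2 against 2 arrays in which 79 of 19937 genes (0.396%) passed. It was 0.87 without knockout replicate 1 (adjusted p = 0.273) and 0.31 without knockout replicate 2, and a difference between the title schemes was not shown (interaction 0.37, SE 0.49; limma adjusted p = 0.759). H2bc18 and H2bc21 lie on chromosome 3, away from the chromosome 13 clusters.

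The bright chromosome 13 genes H2bc14 and H2bc3 varied little. H2bc14 had 13.32, 13.40, 13.41 and 13.36 in knockout samples and 13.40, 13.35, 13.24 and 13.09 in wild-type samples (difference 0.10, SE 0.11). H2bc3 had 13.05, 13.23, 13.23 and 13.25 in knockout samples and 13.23, 13.16, 12.88 and 12.99 in wild-type samples (difference 0.12, SE 0.12). In both genes the 2 wild-type D/F arrays were the lowest of the wild-type arrays, and the genotypes overlapped. H2bc21 had 6.95, 6.93, 7.28 and 7.05 in knockout samples and 6.25, 6.81, 7.47 and 7.50 in wild-type samples, near the array medians, with a genotype difference of 0.04 (SE 0.21). The remaining H2B genes, H2bc4, H2bc8, H2bc9 and H2bc22, had differences from -0.15 to 0.27.

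The 3 H3 genes with a probe set of their own had low signals, with means from 5.92 to 7.33. H3c7 had 5.80, 5.66, 5.71 and 5.68 in knockout replicates 1 to 4, against 5.84, 6.36, 6.10 and 6.21 in wild-type replicates 1 to 4, without overlap. The means were 5.71 ± 0.06 in knockout and 6.13 ± 0.22 in wild-type samples (SD, n = 4 each), a 1.33-fold lower level (log2 difference -0.42, SE 0.17; limma adjusted p = 0.878). Each of these signals lay below the median of its array, so the size is uncertain, and the groups overlapped after quantile normalization (difference -0.32). H3c15 had 7.68, 7.67, 6.97 and 7.33 in knockout samples and 6.30, 7.95, 7.02 and 7.75 in wild-type samples, overlapping groups with a difference of 0.16 (SE 0.33) that was -0.25 without wild-type replicate 1. H3c4 had 6.50, 6.66, 6.62 and 7.36 in knockout samples and 6.13, 7.12, 6.73 and 6.41 in wild-type samples, also overlapping, with a difference of 0.19 (SE 0.25).

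Of the 6 H4 genes, 5 were higher on average in knockout samples, both as deposited and after quantile normalization. All genes had shares of 28% and 43.5%, and the 519 genes with a mean over 12 had 62.4% and 50.5%. H4c4 had 14.55, 14.54, 14.64 and 14.66 in knockout replicates 1 to 4, against 14.80, 14.68, 14.35 and 14.28 in wild-type replicates 1 to 4 (difference 0.07, SE 0.12). Every knockout array lay between the wild-type RO arrays and the wild-type D/F arrays. H4c3 had 12.59, 12.64, 12.40 and 12.52 in knockout samples and 12.60, 12.57, 11.97 and 12.28 in wild-type samples, a difference of 0.18 (SE 0.12). H4c8 had 9.99, 10.45, 10.18 and 10.18 in knockout samples and 10.16, 10.08, 9.96 and 9.75 in wild-type samples, a difference of 0.21 (SE 0.15). The groups of both overlapped. H4c6, H4c14 and H4c9 had differences of -0.02, 0.00800 and 0.07.

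**Figure D2:**
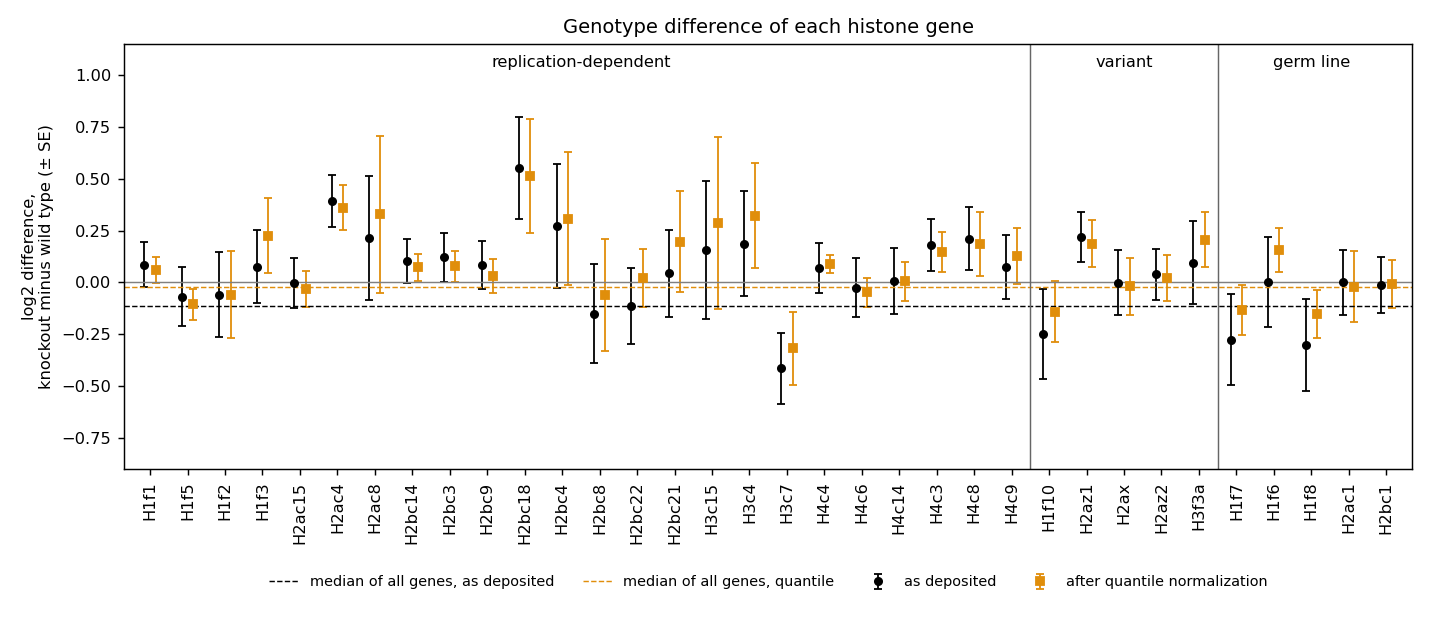
Knockout minus wild type on the log2 scale with its SE (vertical axis) for each of the 34 histone genes, as deposited (black circles) and after quantile normalization (orange squares), with dashed lines for the median of all genes at -0.11 and -0.02. H2ac4 at 0.39 and H2bc18 at 0.55 stand highest and H3c7 at -0.42 lowest, and none passed the adjustment.

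Variant histones are described next. H2az1 and H2az2 encode H2A.Z.1 and H2A.Z.2, which take the place of H2A at promoters. The probe sets named for H2az1 and H3f3a may also read processed copies of these genes, which was not tested. H2az1 had 13.51, 13.58, 13.40 and 13.55 in knockout replicates 1 to 4, against 13.17, 13.61, 13.24 and 13.13 in wild-type replicates 1 to 4, a difference of 0.22 (SE 0.12; limma adjusted p = 0.878). Wild-type replicate 2 lay above every knockout array and the other 3 wild-type arrays below them all. A second H2az1 probe set had 12.75, 12.86, 12.70 and 12.83 in knockout samples and 12.53, 12.93, 12.67 and 12.44 in wild-type samples, a difference of 0.14 (SE 0.13) with the same array on top. H2az2 had 12.19, 12.28, 11.92 and 12.06 in knockout samples and 12.40, 12.20, 11.96 and 11.73 in wild-type samples, overlapping groups with a difference of 0.04 (SE 0.12).

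H2ax encodes H2A.X, which is phosphorylated at DNA breaks, including those of antigen receptor gene assembly in lymphocytes. It had 12.27, 12.33, 12.02 and 11.96 in knockout replicates 1 to 4, against 12.76, 12.35, 11.54 and 11.92 in wild-type replicates 1 to 4. Wild-type arrays held both the highest and the lowest signal, and the genotype means of 12.14 ± 0.18 in knockout and 12.14 ± 0.53 in wild-type samples (SD, n = 4 each) differed by -0.000959 (SE 0.16). H1f10, the gene of the linker variant H1.10, had 7.63, 7.23, 7.86 and 7.71 in knockout samples and 8.28, 7.73, 7.96 and 7.45 in wild-type samples, overlapping groups with a difference of -0.25 (SE 0.22) that was 0.08 within the D/F arrays. The probe set of H3f3a, 1 of the genes of H3.3, had 6.30, 5.81, 6.09 and 6.15 in knockout samples and 6.48, 5.95, 5.81 and 5.73 in wild-type samples (difference 0.10, SE 0.20). These H3f3a signals lay below every array median, unlike those of the probe sets that name H3f3a together with a predicted gene, given further on.

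Among the germ-line genes, H2ac1 and H2bc1 encode the testis histones TH2A and TH2B. Their gene means were 9.92 and 9.34, and their differences 0.000744 (SE 0.16) and -0.01 (SE 0.14). H1f6, H1f7 and H1f8, linker histones of spermatocytes, spermatids and oocytes, had means from 6.57 to 7.38, around or below the array medians, and differences from -0.30 to 0.00215. All 5 had a larger SD among wild-type than among knockout arrays, against 68.9% of all genes. Wild-type replicate 1 was the highest array for 4 of the 5, against 33.6% of all genes.

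Replication-dependent and variant genes were then set against each other on each array, since their difference within an array does not depend on the array's scaling factor. The mean of the 24 replication-dependent genes minus that of the 5 variants was 0.04, 0.31, 0.23 and 0.34 in knockout replicates 1 to 4, against -0.20, 0.18, 0.26 and 0.44 in wild-type replicates 1 to 4. Wild-type replicates held the lowest and the highest value, and the genotype means of 0.23 ± 0.14 in knockout and 0.17 ± 0.27 in wild-type samples (SD, n = 4 each) overlapped, with a difference of 0.06 that was -0.06 without wild-type replicate 1. After quantile normalization the values were 0.04, 0.31, 0.23 and 0.34 in knockout samples and -0.23, 0.18, 0.24 and 0.47 in wild-type samples. The low value of wild-type replicate 1 includes dim probe sets. As deposited, the 7 replication-dependent genes with a mean under 8 had a mean of 6.34 there, against 6.84 to 7.07 on the other wild-type arrays. The 11 with a mean over 12 were highest there at 13.54, as were the variants at 10.62.

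The mean of the 11 replication-dependent genes with a mean signal over 12 was 13.29, 13.40, 13.37 and 13.39 in knockout replicates 1 to 4, against 13.54, 13.34, 13.12 and 13.11 in wild-type replicates 1 to 4. The knockout arrays lay within a narrow band, with wild-type replicate 1 above it and wild-type replicates 3 and 4 below it. The means were 13.36 ± 0.05 in knockout and 13.28 ± 0.21 in wild-type samples (SD, n = 4 each). After quantile normalization the same means were 13.35 ± 0.05 and 13.29 ± 0.06, and the wild-type arrays ran from 13.23 to 13.37. The 5 variants had means of 10.38, 10.24, 10.26 and 10.28 in knockout samples and 10.62, 10.37, 10.10 and 9.99 in wild-type samples, with wild-type replicate 1 again highest and wild-type replicates 3 and 4 lowest. Here quantile normalization left the wild-type SD at 0.21, where it was 0.28 as deposited. The SD was larger among wild-type than among knockout arrays for 28 of the 34 members (82.4%), against 68.9% of all genes, and after quantile normalization for 30 (88.2%), against 59.7% of all genes.

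**Figure D3:**
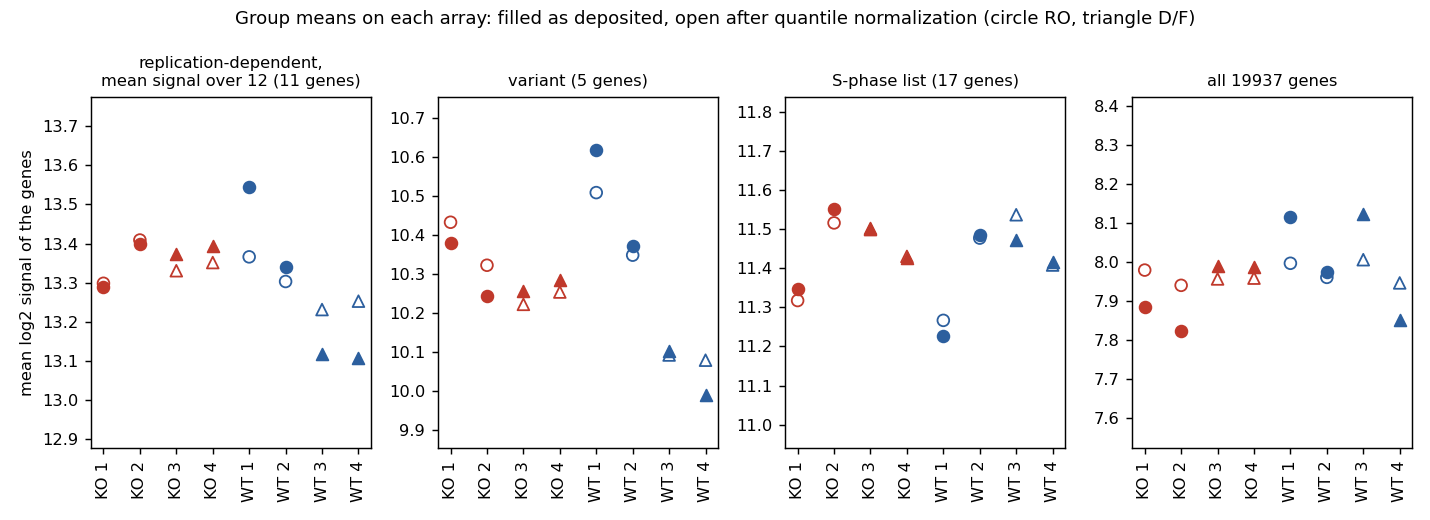
Mean log2 signal (vertical axis, each panel spanning the same range of 0.9) on each array (KO, knockout; WT, wild type) of the 11 bright replication-dependent genes, the 5 variants, 17 S-phase genes and all 19937 genes, filled as deposited and open after quantile normalization. The bright replication-dependent genes ran from 13.29 to 13.40 in knockout and from 13.11 to 13.54 in wild-type samples as deposited, and from 13.23 to 13.37 in wild-type samples after quantile normalization.

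The second question was whether histone transcripts differed between the title schemes. None of the 34 genes passed (limma, lowest adjusted p = 0.641), where 4 genes of 19937 (0.0201%) did. At an unadjusted p under 0.05 there were 5 members, against 3.12% of all genes. Of these, H2ax (D/F minus RO -0.57, SE 0.16), H2az2 (-0.35, SE 0.12) and H4c3 (-0.30, SE 0.12) were lower in D/F arrays. H2bc21 (0.59, SE 0.21) and H2bc18 (0.58, SE 0.25) were higher in them. The H2bc21 difference was 0.95 in wild-type and 0.22 in knockout samples. For H2bc18 the RO array of knockout replicate 1 had 10.64, against 12.04 to 12.14 on the other knockout arrays. After quantile normalization 3 members, H2ax, H2az2 and H4c3, were under 0.05, against 862 of 19937 genes. For H2ax the D/F arrays had 12.02 and 11.96 in knockout and 11.54 and 11.92 in wild-type samples, all below the RO arrays, which had 12.27 and 12.33 in knockout and 12.76 and 12.35 in wild-type samples. On average 15 of the 24 replication-dependent genes and 4 of the 5 variants were lower in D/F arrays, against 36.2% of all genes. The medians of the scheme difference were -0.08 and -0.19, beside 0.05 over all genes, and after quantile normalization -0.03 and -0.24, beside 0.00571. The 11 bright replication-dependent genes were all lower in D/F arrays, and 8 of 11 after quantile normalization, beside 68.0% and 46.6% of the 519 genes with a mean over 12.

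Whether the scheme difference was alike in the genotypes was asked with an interaction term. Of the 34 genes 0 passed (limma, lowest adjusted p = 0.716), where 6 of 19937 (0.0301%) did. In knockout arrays 9 of the 24 replication-dependent genes were lower in D/F than in RO arrays, against 28.8% of all genes, and in wild-type arrays 15 were, against 63.2% of all genes. The 11 bright ones were all lower in D/F than in RO arrays among wild-type samples, with a median difference of -0.26, while 3 of them were lower among knockout samples. Of the 519 genes with a mean over 12, 65.7% were lower in D/F than in RO arrays among wild-type and 52.6% among knockout samples. These counts changed with the scaling: after quantile normalization 7 of the 11 were lower among wild-type and 5 among knockout samples. Of the 519 genes, 43.0% were then lower among wild-type and 57.8% among knockout samples.

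At an unadjusted interaction p under 0.05 there were 4 members, H2bc4, H4c4, H4c6 and H4c14, against 5.38% of all genes. Among the 519 genes with a mean over 12 there were 65. H2bc4, H4c6 and H4c14 were singled out after their values were seen. After quantile normalization 2 members were under 0.05, H2bc4 and H2bc21, against 4.58% of all genes. The count of 4 was 10 without wild-type replicate 2, 7 without wild-type replicate 3, 2 without knockout replicate 4 and 1 in a fit without the mean-variance trend. H2bc4 had 8.67, 8.50, 8.84 and 9.70 in knockout replicates 1 to 4, against 9.30, 8.79, 8.33 and 8.21 in wild-type replicates 1 to 4. Its D/F minus RO difference was 0.68 in knockout and -0.78 in wild-type samples, an interaction of 1.46 (SE 0.43; limma adjusted p = 0.716), which stayed at 1.46 after quantile normalization and was 1.03 without knockout replicate 4. H4c14 had 13.40, 13.50, 13.54 and 13.59 in knockout samples and 14.01, 13.59, 13.30 and 13.11 in wild-type samples, and knockout arrays lay above the wild-type D/F arrays and below wild-type replicate 1, with knockout replicate 4 level with wild-type replicate 2. Its interaction of 0.71 (SE 0.23) was 0.35 after quantile normalization. H4c4, described above, had 0.53 (SE 0.16) as deposited and -0.05 after quantile normalization, and H4c6 had 0.55 (SE 0.22) and 0.13.

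**Figure D4:**
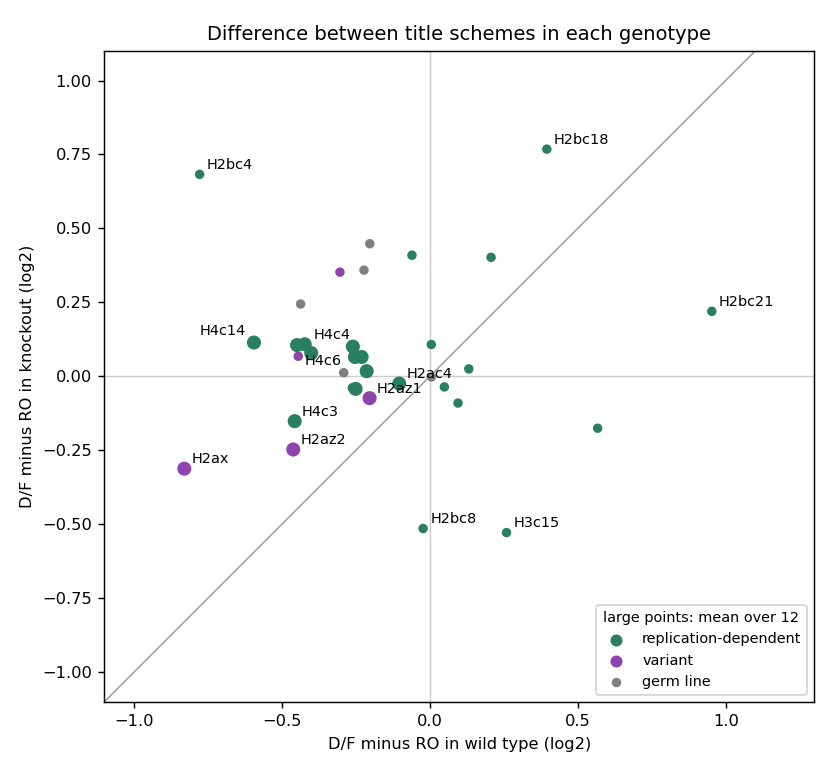
D/F minus RO on the log2 scale in wild-type samples (horizontal axis) and in knockout samples (vertical axis) for each histone gene, coloured by class, with large points for a mean signal over 12 and a diagonal where both are equal. All bright genes lie left of 0 in wild type, and H2bc4 lies farthest from the diagonal at 0.68 in knockout and -0.78 in wild type.

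Many histone probe sets could not be given to 1 gene. The annotation named 72 histone genes by these prefixes, of which 38 appeared only in probe sets with several symbols, and 28 probe sets carried several symbols with at least 1 histone gene among them, up to 19 in 1 probe set. They comprised 9 for H3, 6 for H2B, 5 for H4, 6 for H3.3, 1 for H2A with H3 and 1 for H1 with H2B. In a fit over all 34760 probe sets 0 of the 28 passed for genotype (lowest adjusted p = 0.910) or for the interaction (0.732). At an unadjusted p under 0.05 there were 3 of the 28 for genotype, against 3.02% of the 34760 probe sets, and 11 for the interaction, against 5.72%. All 11 were among the 21 with a mean over 12. Of the 519 genes with a mean over 12, 65 had an unadjusted interaction p under 0.05 as deposited and 47 after quantile normalization. The interaction of the 28 after quantile normalization was not examined, and many of the 28 carry the same list of symbols.

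The brightest H3 probe set, with 12 symbols, had 14.56, 14.60, 14.69 and 14.67 in knockout replicates 1 to 4, against 15.09, 14.74, 14.49 and 14.29 in wild-type replicates 1 to 4. The brightest H4 probe set, with 11 symbols, had 14.54, 14.57, 14.72 and 14.68 in knockout samples and 14.998, 14.76, 14.54 and 14.38 in wild-type samples. Both had the order seen for H4c4, with wild-type replicate 1 on top and wild-type replicate 4 lowest. That extreme pair of arrays recurred in 13 of the 28, and wild-type replicate 1 was highest in 16. That array was highest for 33.6% of all genes and for 32.6% of the 519 genes with a mean over 12. The 28 are not separate genes: the 9 H3 probe sets carry 1 list of symbols, and those of H2B and of H4 carry 2 lists each. The brightest H3 and H4 probe sets had genotype differences of -0.02 and -0.04. Over the 9 H3 probe sets the differences ran from -0.72 to 0.40, although all carry the same symbols. These extremes had mean signals of 8.89 and 13.62 and went opposite ways. Both were among the 3 with an unadjusted genotype p under 0.05 (limma adjusted p = 0.910 for each), and their groups overlapped. Adding the 15 probe sets whose symbols are all replication-dependent to the 24 genes gave a median genotype difference of 0.00410, where the 24 genes alone gave 0.08.

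H3.3 gave 6 shared probe sets, 4 naming H3f3a with a predicted gene and 2 naming H3f3b with a predicted gene, with means from 11.74 to 12.86. Their genotype differences ran from -0.00462 to 0.37. In the 1 at 0.37, a probe set of H3f3a, knockout samples had 12.04, 12.02, 11.76 and 11.88, against 11.17, 11.61, 11.72 and 11.71 in wild-type samples, without overlap (limma adjusted p = 0.910). The other 3 that name H3f3a had differences from 0.08 to 0.10 with overlapping groups.

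**Figure D5:**
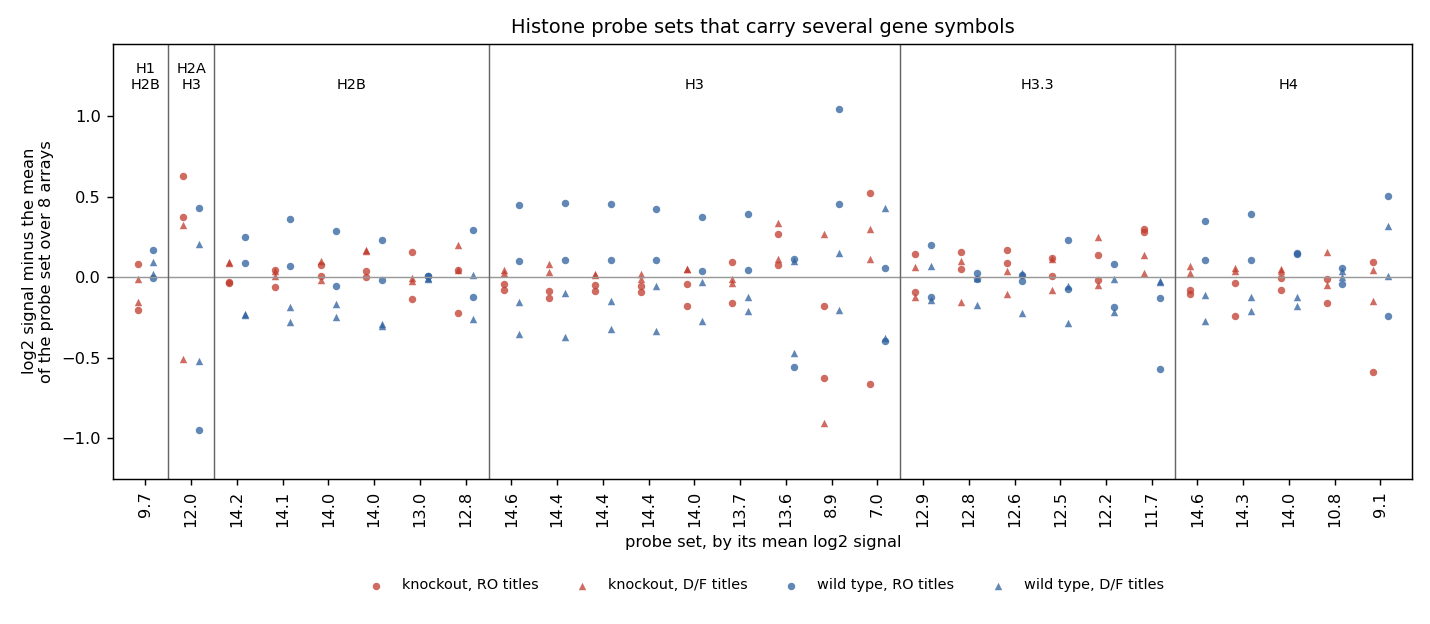
Log2 signal of each of the 28 several-symbol histone probe sets minus its own mean over the 8 arrays (vertical axis), by histone family and marked by mean signal (horizontal axis), with knockout in red left of wild type in blue, circles for RO and triangles for D/F titles. In 16 of the 28 the highest array is wild-type replicate 1, against 33.6% of all genes.

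Genes that make, bind and place histones were read beside these results, from lists of 22 genes for histone expression and 3′ processing (21 measured), 27 for chaperones and deposition (24 measured), 18 for S phase (17 measured) and 13 for G2 and M phase (12 measured). No gene of these lists passed for genotype. At an unadjusted p under 0.05 there were 2 of 21, 1 of 24, 0 of 17 and 0 of 12, against 2.25% of all genes. After quantile normalization there were 1 of 21, 1 of 24, 0 of 17 and 0 of 12, against 677 of 19937 genes. Sympk, the scaffold of the complex that cleaves histone messages, had 11.14, 12.55, 11.87 and 11.91 in knockout replicates 1 to 4, against 10.52, 11.45, 11.58 and 10.76 in wild-type replicates 1 to 4, overlapping groups with a difference of 0.79 (SE 0.30; limma adjusted p = 0.878). Slbp, the stem-loop binding protein, had 11.73, 11.64, 11.42 and 11.33 in knockout samples and 10.91, 11.30, 11.12 and 11.52 in wild-type samples, a difference of 0.32 (SE 0.16) with overlap. Lsm1, part of the ring that starts decay of histone messages, had 8.42, 9.03, 8.65 and 8.81 in knockout samples and 8.47, 8.28, 8.29 and 8.36 in wild-type samples, where knockout replicate 1 alone lay among the wild-type arrays (difference 0.38, SE 0.17). The median difference of this list was 0.08.

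Among chaperones and deposition factors the median difference was 0.04. Ipo4, an importin that carries H3 and H4 into the nucleus, had 10.38, 9.48, 9.57 and 10.43 in knockout samples and 10.86, 10.23, 10.56 and 10.67 in wild-type samples, overlapping groups with a difference of -0.61 (SE 0.24; limma adjusted p = 0.878). Hat1, which acetylates new H4, had 12.01, 12.13, 11.98 and 11.67 in knockout samples and 10.997, 12.02, 11.61 and 11.99 in wild-type samples (difference 0.30, SE 0.22). Wild-type replicate 1 was the lowest array for Hat1, the reverse of its place for the bright H3 and H4 probe sets. Supt16, a subunit of the FACT chaperone, had 10.74, 11.21, 10.95 and 10.71 in knockout samples and 10.23, 11.02, 10.51 and 10.94 in wild-type samples, with overlap and a difference of 0.22 (SE 0.20).

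The S-phase list had means of 11.35, 11.55, 11.50 and 11.43 in knockout replicates 1 to 4, against 11.23, 11.48, 11.47 and 11.42 in wild-type replicates 1 to 4. Wild-type replicate 1 was lowest here, where as deposited it was highest for the bright replication-dependent histone genes. After quantile normalization it was still lowest for the S-phase list, at 11.27. For the bright histone genes it then had 13.37, below knockout replicate 2 at 13.41. The differences were 0.17 (SE 0.12) for Pcna, the sliding clamp of DNA polymerase, 0.17 (SE 0.14) for Tk1, thymidine kinase, and 0.19 (SE 0.20) for Rrm2, a subunit of ribonucleotide reductase. Pcna had 13.82, 13.93, 13.99 and 13.81 in knockout samples and 13.57, 14.03, 13.64 and 13.65 in wild-type samples. Tk1 had 11.11, 10.94, 10.99 and 11.25 in knockout samples and 10.53, 10.77, 11.14 and 11.17 in wild-type samples. Rrm2 had 12.32, 12.78, 12.62 and 12.36 in knockout samples and 11.73, 12.63, 12.41 and 12.55 in wild-type samples. The groups of all 3 overlapped, with wild-type replicate 1 the lowest array in each. Of the G2 and M genes, the mitotic kinase Aurkb had a difference of -0.12 (SE 0.11), with 12.32, 12.30, 12.39 and 12.37 in knockout samples and 12.57, 12.42, 12.50 and 12.38 in wild-type samples. The motor Kif11 had 0.20 (SE 0.22), with 11.60, 11.91, 11.79 and 11.38 in knockout samples and 10.97, 11.72, 11.20 and 11.98 in wild-type samples. The checkpoint kinase Bub1 had 0.25 (SE 0.29), with 11.27, 11.47, 11.27 and 10.79 in knockout samples and 10.03, 11.32, 10.86 and 11.58 in wild-type samples, and the groups of all 3 genes overlapped. Wild-type replicate 1 was the lowest array for Kif11 and Bub1 and the highest for Aurkb.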

How the data were processed

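Transcripts of 8 samples were measured on 1 array each. Per the labels' protocols, total RNA was extracted with Trizol, cleaned on a column, primed with random hexamers, amplified and biotin-labelled. The authors deposited log2 values for 34760 probe sets, made with MAS5 per the submitters' processing notes; the sources used here give no version, settings or probe summarization for it. On each array the linear mean after trimming 2% from each end was 500, so the scaling fixed that mean and not the distribution. Precision is limited by there being 4 arrays per genotype.

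The platform annotation gave the names: 21640 probe sets had 1 symbol, 1321 several and 11799 none. Chromosomes came from a GRCm38.p6 gene table. Groups came from the genotype label, and replicates were numbered in order of deposit. Values were fitted as deposited with limma 3.58.1 in R 4.3.3 (lmFit, eBayes with trend; genotype and title scheme as terms, 5 residual degrees of freedom), with Benjamini-Hochberg adjustment over 19937 genes at 0.05; each SE is the moderated one. The fit was tested on simulated data. The named members were all variants, every member called or without overlap, and in each replication-dependent family the brightest, up to 3 of smallest genotype p and 1 of smallest scheme p, with up to 3 genes of smallest genotype p per supporting list. The members and lists were chosen with earlier results of these data known. Alternatives were other scalings, filters, probe set rules and priors, array weights, the scheme dropped or as a random block, either scheme by itself, and leaving out 1 array at a time.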

Additional observations from a re-analysis of the deposited data

Results flagged for a closer look

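The highest or lowest array of each group of 4 was compared with the other 3 for the 34 histone genes and for Jun. Of 68 groups of histone genes 5 had an array whose gap to the nearest other, as a share of the group's range, exceeded Dixon's critical value, where chance gives about 1 in 20, or 3.4 groups. Knockout replicate 1 was the lowest for 3 genes: H2bc18 at 10.64, against 12.04 to 12.14 in the other knockout samples, H1f1 at 13.80, against 13.93 to 13.94, and H2bc3 at 13.05, against 13.23 to 13.25. H2bc9 was highest in knockout replicate 4 at 12.86, against 12.73 to 12.74. H1f8 was highest in knockout replicate 3 at 6.72, against 6.29 to 6.36, all under the median of their arrays. The gaps of H1f1, H2bc3 and H2bc9 are small on the log2 scale and that of H2bc18 is not. Jun was lowest in knockout replicate 2 at 6.46, against 6.97 to 7.02 in the others, and highest among wild-type samples in replicate 3 at 10.55, against 8.77 to 8.84.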

How the results depend on the processing

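No histone gene passed for genotype under any alternative run, except 1, H2bc18, in the D/F arrays alone, and 0 passed for title scheme or interaction. Jun passed with array weights (-2.71), in the RO arrays (-2.10), in the D/F arrays (-2.67) and without wild-type replicate 3. With 1 array left out it ran from -2.68 to -1.97. The 21 named members gave 315 genotype differences under alternatives, of which 43 changed sign, in 15 members. In the RO arrays H1f1 had -0.062, H1f3 -0.023, H2bc14 -0.013, H2bc3 -0.059, H3c4 -0.049, H4c4 -0.20, H2az2 -0.068 and H3f3a -0.16. In the D/F arrays H1f5 had 0.17, H2ac15 0.10, H2ac8 -0.16, H2bc21 -0.32, H3c15 -0.24, H1f10 0.080 and H2ax 0.26. With arrays centred on their medians H1f5 had 0.084, H2ac15 0.15 and H2ax 0.15. Without both wild-type arrays of highest median, a choice made after seeing the data, H1f5 had 0.069, H1f3 -0.073, H2ac15 0.074, H2ac8 -0.28, H2bc21 -0.10, H3c15 -0.44, H1f10 0.015 and H2ax 0.0077. With 1 array left out the ranges were -0.13 to 0.081 for H1f5, -0.040 to 0.15 for H1f3, -0.067 to 0.099 for H2ac15, -0.080 to 0.46 for H2ac8, -0.14 to 0.16 for H2bc21, -0.25 to 0.41 for H3c15, -0.0076 to 0.43 for H3c4, -0.13 to 0.13 for H2ax and -0.028 to 0.10 for H2az2. The causes were not tested. The median genotype difference of the replication-dependent genes was 0.233 with centring, -0.022 in the RO arrays and 0.226 in the D/F arrays, and that of the variants 0.258 in the D/F arrays. These moved by more than the SD of the list's mean between arrays of a genotype (0.0858 and 0.204). The title scheme median of the variants ran from -0.338 to -0.122 with 1 array left out, lowest without knockout replicate 2. Centring put the median of all genes at 0.04, against -0.11 as deposited, and 23 of 24 replication-dependent genes were then higher in knockout samples. The share of all genes that were higher with centring was not counted. Dim signals limit H1f3, H2ac8, H3c4, H3c7 and H3f3a. No paired analysis was possible because the labels carry no replicate numbers.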
